A study of Xenopus laevis with 4 samples.

Results

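Solute carriers are the large group of membrane proteins whose genes carry the symbol slc, and their transcripts were followed here in *Xenopus laevis* hindlimbs 3 days after amputation. Members were the probesets of an Affymetrix *X. laevis* GeneChip with a single gene symbol in the array's annotation that starts with slc and a number, and slc4a1, the anion exchanger of red cells, was left out by that rule. This gave 130 probesets of 102 genes among the 15491 probesets tested. The tissue came from sibling tadpoles at NF stage 52, whose hindlimb buds were cut off where the ankle would form, and each array held RNA pooled from 20 hindlimbs. The first group was the pseudoblastema of N1 transgenics, a line from a single insertion that carries *X. laevis* Noggin, an inhibitor of BMP ligands, behind the heat shock promoter Hsp70, linked to GFP behind a promoter of the lens. The second group was the blastema of wild type (WT) siblings without the transgene. WT tadpoles were heat shocked like the N1 tadpoles, shortly before amputation and on the first and the second day after it, so heat shock was shared by all 4 arrays. There were 2 arrays in each group, described as biological replicates, and the p-values below rest only on the spread between these pools. That spread was taken from the probeset itself and from the trend over all probesets.

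Solute carriers move amino acids, sugars, nucleotides, metals, vitamins and ions across the plasma membrane and the membranes of organelles. Many are driven by gradients of sodium or protons that ATP-using pumps set up, others exchange 1 solute for another, and the slc25 family sits mostly in the inner mitochondrial membrane. Growing tissue relies on them for nutrients, above all on the carriers of amino acids that feed protein synthesis. *X. laevis* is allotetraploid, so many genes have a homeolog on a long chromosome (.L) and another on a short one (.S), each with its own probeset.

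The values are MAS5 signals, a linear measure of a probeset's brightness that the authors scaled so that the trimmed mean of every array is 500. The median signal was 175 and 167 on the N1 arrays, against 161 and 157 on the WT arrays. Over the members, the log2 signals of replicate arrays correlated with a Pearson coefficient of 0.938 in N1 and 0.93 in WT, across probesets, which are not independent of each other. A probeset is called bright here when its mean log2 signal reached the median of all probesets, equal to a signal of 165, and dim when it did not. Of the members, 59 were bright and 71 dim. The nog.L probeset, for the gene behind the transgene, was dim, with 75.6 and 52.2 in N1, against 91.8 and 95.5 in WT, and since the transgene holds coding sequence only and the place of the probes was not given in the sources used here, it does not check the labels.

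No member passed the test after adjustment. In limma, 0 of 130 members had an adjusted p under 0.05 in either direction, where 0.11% of all probesets passed as higher in N1 and 0.0129% as lower, and the smallest adjusted p of a member was 0.128. At an unadjusted p under 0.05, 12 members were higher in N1 and 5 were lower, which is 9.23% and 3.85% of them, beside 6.82% and 4.29% of all probesets. Both N1 arrays lay above both WT arrays for 36 members and below them for 17, which is 27.7% and 13.1%, beside 24.2% and 17.9% of all probesets, and the arrays of the groups overlapped for the other 77. These shares stand near the background. The median log2 difference, N1 minus WT, was 0.11 over the members and 0.07 over all probesets. The SE of a member's log2 difference had a median of 0.38, and the number of arrays limits the precision of every value here.

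The balance between directions rested on the scaling. With the deposited scaling, 70.6% of the 17 members at an unadjusted p under 0.05 were higher in N1, as were 61.4% of all such probesets. After quantile normalisation 8 members were higher and 7 lower (53.3% and, over all probesets, 53.3%), and after each array was centred on its median 8 were higher and 8 lower (50% and, over all probesets, 42.6%). The lower count fell with either WT array left out, over the members and over all probesets alike. Among bright members 4 were higher and 4 lower (6.78% each, beside 8.31% and 7.02% of all bright probesets), and among dim members 8 were higher and 1 lower (11.3% and 1.41%, beside 5.33% and 1.55% of all dim probesets). Dim probesets leaned to higher values in N1 across the whole array. The large differences of dim members also shrank when a number was added to the signals before log2, with 64 added to 0.70 for slc30a2.L, 0.50 for slc2a9.S and 0.52 for slc66a1l.L, against 2.54, 2.42 and 2.07 with nothing added. With 64 added the highest of the members were slc7a8.L, slc7a8.S and slc38a2.L, at 1.08, 1.04 and 0.92.

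By size alone, 3 bright members were over 1.5-fold higher in N1 and 3 over 1.5-fold lower, which is 5.09% of the 59 in each direction, beside 8.29% and 5.91% of all bright probesets. Those higher were slc7a8.L, slc38a2.L and slc35b2.S, and those lower were slc25a13.L, slc27a6.L and slc35c2.S. Both counts rose with either N1 replicate left out, and the higher count also rose without WT replicate 1. The lower count was 5 after median centring. The share over all bright probesets in these other settings is not given here, so these changes say nothing particular to the carriers.

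**Figure D1:**
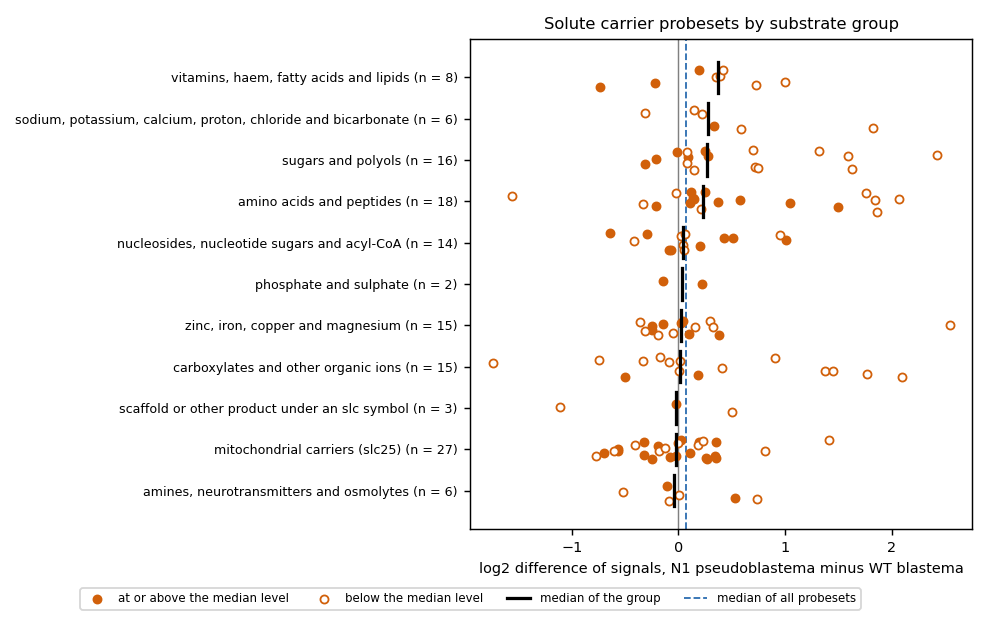
Log2 difference of the MAS5 signals, N1 pseudoblastema minus WT blastema, for each of the 130 solute carrier probesets (points), in rows by substrate group ordered by the group's median (black bar). Filled points are bright and open points dim, and the dashed line is the median of all probesets (0.07). The widest differences are open points, and the 27 slc25 carriers sit around 0 with a median of -0.02.

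The carriers of amino acids and peptides held the members with the smallest p. Of 18 probesets of 14 genes, 6 were higher in N1 and 1 lower at an unadjusted p under 0.05, which is 33.3% and 5.56%, beside 6.82% and 4.29% of all probesets, and 0 passed limma's test after adjustment. The 6 were both homeologs of slc7a8, both homeologs of slc3a2, slc38a2.L and slc66a1l.L. The higher count fell without N1 replicate 2, where the share of all probesets that were higher rose. The lower count fell without N1 replicate 2 and without either WT replicate. Over all probesets the share that was lower rose in the first of these settings and fell in the others. Both N1 arrays lay above both WT arrays for 11 of the 18 and below them for 2 (61.1% and 11.1%, beside 24.2% and 17.9% of all probesets), and the median log2 difference was 0.23.

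Slc7a8 (LAT2) carries large neutral amino acids and works only as a pair with slc3a2, the heavy chain also called CD98 or 4F2hc, which brings it to the plasma membrane. The probeset of slc7a8.L read 284 and 291 in N1, against 104 and 99.4 in WT. The arrays of each group were close together and the groups lay far apart, with a mean 2.82-fold higher in N1 (log2 difference 1.497, SE 0.30, 95% interval 0.81 to 2.19, limma adjusted p = 0.128). The dim slc7a8.S read 164 and 158 in N1, against 54.5 and 36.5 in WT, again without overlap (log2 difference 1.85, SE 0.42, adjusted p = 0.166).

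The heavy chain slc3a2.S was among the brightest amino acid members, with 1743 and 2123 in N1, against 1156 and 1438 in WT. All N1 values were above all WT values, by 1.49-fold in the mean (log2 difference 0.58, SE 0.20, adjusted p = 0.35). The dim slc3a2.L read 61.9 and 79.2 in N1, against 11.3 and 37.7 in WT, where the WT arrays differed from each other more than 3-fold (log2 difference 1.76, SE 0.69, adjusted p = 0.402). Of the 24 genes with over 1 probeset, slc7a8 and slc3a2 were the 2 of which every probeset had an unadjusted p under 0.05 in the same direction. The share of such genes over the whole array is not given here.

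The other light chains measured did not move in step with slc7a8. Slc7a5.L (LAT1), which shares its substrates and its heavy chain, read 395 and 396 in N1, against 508 and 410 in WT, so N1 was slightly the lower (log2 difference -0.21, 95% interval -0.75 to 0.33, adjusted p = 0.794). Slc7a7.L, the light chain that exports cationic amino acids in exchange for neutral ones and sodium, read 176 and 272 in N1, against 231 and 178 in WT, and the groups overlapped. The dim slc7a9.L, a light chain that pairs with another heavy chain, read 36.8 and 13.9 in N1, against 19 and 27.8 in WT.

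Slc38a2 (SNAT2) brings in small neutral amino acids with sodium and is known in mammalian cells to be induced when amino acids run short. The probeset of slc38a2.L read 695 and 664 in N1, against 339 and 318 in WT. The groups did not overlap, and the mean was 2.07-fold higher in N1 (log2 difference 1.05, SE 0.22, 95% interval 0.55 to 1.55, adjusted p = 0.138). Slc38a5.S (SNAT5), a relative that carries glutamine, read 1062 and 782 in N1, against 918 and 735 in WT, and overlapped.

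Slc7a3.L, a carrier of cationic amino acids and the brightest member here, read 2244 and 2456 in N1, against 1852 and 2118 in WT (log2 difference 0.25, adjusted p = 0.658). Both N1 arrays were above both WT arrays, by less than 1.2-fold in the mean. The facilitative carriers of large neutral amino acids slc43a1.L and slc43a2.L were likewise above WT on both N1 arrays, with log2 differences of 0.14 and 0.37 and adjusted p of 0.867 and 0.626. The dim slc43a2.S had a log2 difference of -0.33, with overlap. Slc1a5 (ASCT2), an exchanger that takes up glutamine, had log2 differences of 0.21 in the dim .L homeolog and 0.11 in the bright .S homeolog, and that of slc1a5.L was -0.04 after quantile normalisation.

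Among the dim members, slc66a1l.L, named for its likeness to a lysosomal exporter of cationic amino acids, read 41.3 and 47.1 in N1, against 16 and 6.95 in WT (log2 difference 2.07, adjusted p = 0.35). Slc6a14.2.L, of a family that takes up amino acids with sodium and chloride, read 19.4 and 22.7 in N1, against 11.5 and 2.91 in WT. Slc15a2.L, which takes up short peptides with protons, ran the other way, with 25.9 and 10.8 in N1, against 53 and 45.7 in WT (log2 difference -1.56, adjusted p = 0.447). In each case the groups did not overlap while the arrays of at least 1 group differed by more than 2-fold.

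**Figure D2:**
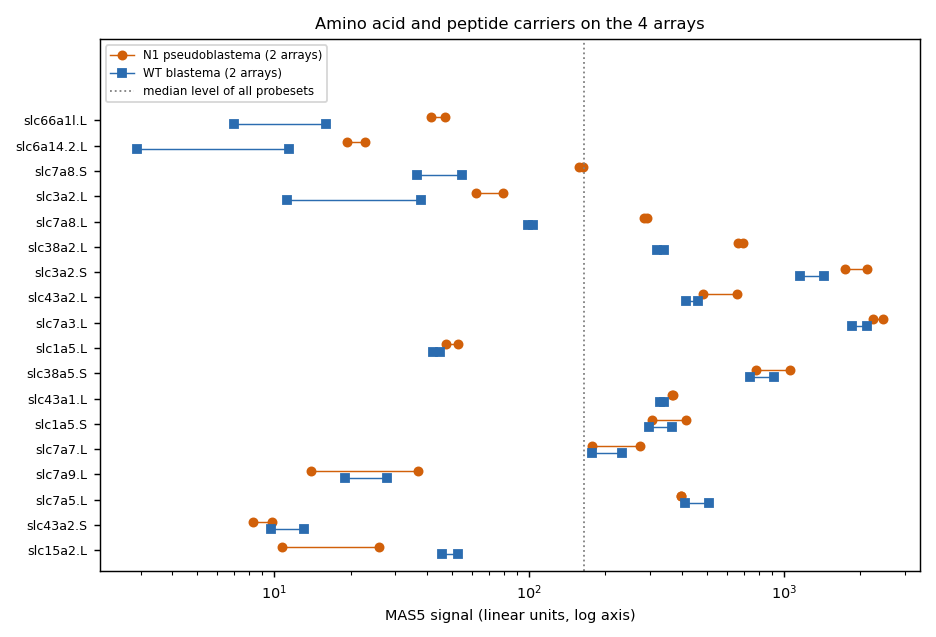
MAS5 signal (log axis) of every probeset of amino acid and peptide carriers on the 4 arrays, with the N1 arrays as orange circles above the WT arrays as blue squares, a line joining the arrays of a group and a dotted line at the median level. Slc7a8.L and slc38a2.L show pairs of tight points far apart (284 and 291 in N1, against 104 and 99.4 in WT, for slc7a8.L). Slc7a8.S also has its groups far apart, but its WT points, 54.5 and 36.5, are less close. In contrast, slc7a5.L has 395 and 396 in N1, against 508 and 410 in WT.

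Among the carriers of sugars and polyols, 16 probesets of 14 genes, 13 had a higher mean log2 signal in N1, beside 8661 of all 15491 probesets. Of the 16, 10 were dim, and 4825 of all 7745 dim probesets were higher in N1. There were 2 with an unadjusted p under 0.05, both higher in N1 and both dim. Of all probesets, 6.82% were higher and 4.29% lower at that threshold. The median log2 difference of the group was 0.26, beside 0.07 over all probesets. In the 6 bright members the median was 0.04. The 2 were slc2a9.S and slc2a2.L. The count was 1 with quantile normalisation and 1 with median centring, where 5.70% and 4.92% of all probesets were higher. Without the variance trend it was 4, where 6.17% of all probesets were higher. It fell with either N1 replicate left out and without WT replicate 2. Over all probesets the higher count rose without N1 replicate 2 and fell in the other settings named.

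Slc2a9, which carries urate, read 52.4 and 25.7 in N1, against 13.7 and 3.43 in WT, in its .S homeolog (log2 difference 2.42, SE 0.92, adjusted p = 0.388). In slc2a9.L the signals were 94 and 34.6 in N1, against 47 and 26.4 in WT, and overlapped. Slc2a2.L (GLUT2), a glucose carrier of low affinity known from liver and pancreas, read 75.2 and 62.4 in N1, against 19.7 and 38.5 in WT (log2 difference 1.32, adjusted p = 0.445).

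The widespread glucose carrier slc2a1.L (GLUT1) had 2 probesets. The brighter overlapped, with 262 and 136 in N1, against 247 and 222 in WT (log2 difference -0.31). The dimmer read 162 and 163 in N1, against 150 and 158 in WT, without overlap but with a difference under its SE (log2 difference 0.08, SE 0.31, and -0.03 under either other scaling). Slc2a3.L (GLUT3) read 79.4 and 102 in N1, against 74.3 and 38.8 in WT (log2 difference 0.74, adjusted p = 0.627). Slc2a4.L (GLUT4), the insulin-responsive carrier of muscle and fat, overlapped with a log2 difference of 0.28.

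The slc37 exchangers carry sugar phosphates, chiefly out of and into the endoplasmic reticulum. Slc37a2.L, the brightest sugar member, read 934 and 692 in N1, against 724 and 635 in WT (log2 difference 0.25, adjusted p = 0.736). Slc37a1.L read 141 and 173 in N1, against 93.7 and 95.5 in WT, without overlap (log2 difference 0.72, adjusted p = 0.505), while slc37a3.L and slc37a4.L, the glucose 6-phosphate carrier, had log2 differences of -0.21 and -0.01. Slc5a11.L, which takes up inositol with sodium, read 26.8 and 29.4 in N1, against 12 and 6.86 in WT (log2 difference 1.63, adjusted p = 0.49).

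The carriers of carboxylates and other organic ions were mostly dim, 13 of 15, with a median log2 difference of 0.02. At an unadjusted p under 0.05, 2 were higher in N1, slc16a3.L and slc22a4.L, and 0 lower. The higher count was 0 with quantile normalisation and with median centring, where 5.70% and 4.92% of all probesets were higher. It fell with either N1 replicate left out and without WT replicate 2. Over all probesets the higher count rose without N1 replicate 2 and fell in the other settings named. The lower count was 2 with median centring and 2 without the variance trend, where 6.64% and 2.68% of all probesets were lower. The main counts are 13.3% and 0% of the group, beside 6.82% and 4.29% of all probesets. Slc16a3 (MCT4), which exports lactate, read 83.5 and 71.1 in N1, against 44.3 and 20 in WT, in its .L homeolog (log2 difference 1.37, adjusted p = 0.424). Its .S homeolog, at the low end of the array's range, read 4.32 and 6.79 in N1, against 16.5 and 19.7 in WT (log2 difference -1.74, adjusted p = 0.529). The homeologs thus stood on opposite sides of 0 without overlap of the groups in either.

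The lactate carrier slc16a1.S (MCT1) was the brightest of this group, with 445 and 612 in N1, against 746 and 728 in WT (log2 difference -0.50, SE 0.23, adjusted p = 0.484). Both N1 arrays were below both WT arrays there. Its dim second probeset read 121 and 139 in N1, against 187 and 89.3 in WT, and its log2 difference of 0.01 was -0.13 with quantile normalisation and -0.10 with median centring. Slc16a6.L, of the same family, read 82.5 and 71.5 in N1, against 140 and 119 in WT (log2 difference -0.75, adjusted p = 0.524). Slc22a4.L, a carrier of ergothioneine in mammals, read 131 and 165 in N1, against 93 and 66.1 in WT (log2 difference 0.91, adjusted p = 0.437). The carnitine carrier slc22a5.L had 2 dim probesets with overlap and log2 differences of -0.09 and 2.10. The latter read 35.83 and 21.88 in N1, against 22.93 and 1.87 in WT, and was 0.29 with 64 added before log2. Slc13a3.L, which takes up dicarboxylates with sodium, was also dim, with 35.72 and 46.85 in N1, against 6.175 and 23.35 in WT. Its log2 difference of 1.77 (adjusted p = 0.477) was 0.43 with 64 added.

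None of the 6 amine, neurotransmitter and osmolyte carriers had an unadjusted p under 0.05 in limma. Slc18a1.S, a vesicular loader of monoamines, read 282 and 330 in N1, against 211 and 211 in WT (log2 difference 0.53, adjusted p = 0.517), and was the only one of the 6 whose groups did not overlap. The choline carrier slc44a1.L, the brightest, read 293 and 321 in N1, against 367 and 296 in WT (log2 difference -0.10).

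Among 14 probesets for nucleosides, nucleotide sugars and acyl-CoA, 1 had an unadjusted p under 0.05, higher in N1 (7.14%, beside 6.82% of all probesets). This was slc35b2.S, which moves the sulphate donor PAPS into the Golgi, where proteoglycans are sulphated. It read 315 and 306 in N1, against 185 and 128 in WT, a mean 1.98-fold higher in N1 without overlap (log2 difference 1.01, SE 0.30, 95% interval 0.32 to 1.71, adjusted p = 0.275). The brightest, slc35a3.2.S, of the Golgi carrier type for UDP-N-acetylglucosamine, read 889 and 775 in N1, against 679 and 496 in WT (log2 difference 0.52, adjusted p = 0.466). Slc35c2.S, a Golgi protein linked to the fucosylation of Notch, had lower values in N1, 193 and 141, against 286 and 230 in WT (log2 difference -0.64, adjusted p = 0.509). The nucleoside carriers slc29a1.S and slc29a2.L, which pass nucleosides down their gradient, overlapped, with log2 differences of -0.07 and 0.43.

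Of 15 probesets for zinc, iron, copper and magnesium, 1 had an unadjusted p under 0.05, higher in N1 (6.67%, beside 6.82% of all probesets). This was slc30a2.L (ZnT2), which loads zinc into vesicles, with 56.5 and 54.3 in N1, against 7.81 and 11.6 in WT. Its log2 difference of 2.54 (SE 0.66, adjusted p = 0.214), the largest of the 130 members with nothing added before log2, rested on these low WT signals. It was 1.48 with 16 added and 0.70 with 64 added, when 4 other members stood higher. The other zinc carriers had log2 differences between -0.36 and 0.38. Slc30a1.L, the zinc exporter of the plasma membrane, read 694 and 1028 in N1, against 986 and 889 in WT, and overlapped. Slc39a7.L, which releases zinc from the endoplasmic reticulum, read 994 and 1170.4 in N1, against 1240.04 and 1328 in WT in its brighter probeset (log2 difference -0.25, adjusted p = 0.677). Its dim probeset had -0.36. Slc39a9.L, the brightest, read 1361 and 1334 in N1, against 1282 and 1230 in WT, a log2 difference of 0.10 that was -0.01 with median centring, and the dim slc39a9.S had -0.19. The 4 probesets of slc30a6 ran between -0.31 and 0.38.

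For vitamins, haem, fatty acids and lipids, 8 probesets, 1 had an unadjusted p under 0.05, the bright slc27a6.L, and it was lower in N1. At that threshold 4.29% of all probesets and 7.02% of all bright ones were lower. Slc27a6.L, which takes up long-chain fatty acids, read 232 and 314 in N1, against 454 and 446 in WT, so that the WT mean was 1.65 times the N1 mean (log2 difference -0.74, SE 0.26, 95% interval -1.33 to -0.15, adjusted p = 0.349). Slc49a3.S, an orphan carrier, read 139 and 93.4 in N1, against 49 and 65.8 in WT (log2 difference 1.00, adjusted p = 0.45). Slc19a3.L, a thiamine carrier, read 194 and 202 in N1, against 150 and 95.9 in WT (log2 difference 0.72, adjusted p = 0.503). Slc46a1.L, which takes up folate with protons, had a log2 difference of 0.42. Slc48a1, a haem carrier of endosomes and lysosomes, had -0.22 in the bright .S homeolog, with both N1 arrays below both WT arrays, and 0.36 in the dim .L homeolog, with overlap.

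Of the 6 carriers of sodium, potassium, calcium, protons, chloride and bicarbonate, 0 had an unadjusted p under 0.05 in limma, and 5 were dim. The bright one, slc4a11.L, of the bicarbonate carrier family and a proton conductor in mammals, read 332 and 427 in N1, against 283 and 315 in WT (log2 difference 0.33, adjusted p = 0.679). Slc5a5.L, the iodide carrier of the thyroid, read 33.2 and 16.7 in N1, against 4.24 and 10.5 in WT (log2 difference 1.82, adjusted p = 0.513). The phosphate carrier slc20a1.L and slc13a4l.S, named for its likeness to a sulphate carrier, overlapped, with log2 differences of -0.15 and 0.22. Slc9a3r1 (NHERF1), a scaffold that binds carriers and is no carrier itself, overlapped in all 3 of its probesets, which had log2 differences of -0.02, 0.51 and -1.11.

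The mitochondrial slc25 carriers were the largest group and the one with the most members lower in N1. Of 27 probesets of 19 genes, 0 were higher and 3 lower at an unadjusted p under 0.05, slc25a13.L, slc25a25.L and slc25a28.S. The 3 are 11.1% of the 27, beside 4.29% of all probesets. All 3 were among the 17 bright probesets of the group, and 7.02% of all bright probesets were lower. The lower count was 1 without the variance trend, where 2.68% of all probesets were lower. It fell with either WT array left out, and the higher count rose without N1 replicate 2. Over all probesets the counts moved the same way in these settings. Both N1 arrays lay below both WT arrays for 7 and above them for 3, which is 25.9% and 11.1%. These shares cover bright and dim members together and stand beside 17.9% and 24.2% of all probesets. Of all bright probesets, 24.1% lay below and 23.2% above in this way. The group held 17 bright and 10 dim probesets. The median log2 difference was -0.02, with a range over left-out arrays of -0.16 without N1 replicate 1 to 0.12 without N1 replicate 2, and it was -0.14 with quantile normalisation and -0.13 with median centring. In the same order, the median over all probesets was 0.07, 0.02, 0.15, -0.02 and -0.04. Without the slc25 carriers, the other 103 members held 12 higher and 2 lower and had a median of 0.15. These counts are 11.65% and 1.942% of them, beside 6.82% and 4.29% of all probesets.

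Slc25a13 (citrin) exchanges aspartate and glutamate across the inner membrane, a step of the malate-aspartate shuttle. It read 613 and 679 in N1, against 916 and 1189 in WT, and the WT mean was 1.63 times the N1 mean (log2 difference -0.69, SE 0.22, 95% interval -1.19 to -0.20, adjusted p = 0.288). Its paralog slc25a12.L was dim, with 90.5 and 29 in N1, against 42.8 and 44.6 in WT, and the N1 arrays enclosed those of WT.

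Slc25a28 (mitoferrin 2) brings iron into mitochondria. Its .S homeolog read 472 and 537 in N1, against 706 and 785 in WT, without overlap (log2 difference -0.56, SE 0.21, adjusted p = 0.382). The bright probeset of its .L homeolog read 736 and 1289 in N1, against 1236 and 1203 in WT (log2 difference -0.32), where N1 replicate 2 stood above both WT arrays and N1 replicate 1 below them, and the dim one had 0.82 with overlap.

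Slc25a25 and slc25a24 exchange ATP-magnesium for phosphate and so set the adenine nucleotide pool of the matrix. Slc25a25.L read 586 and 559 in N1, against 819 and 873 in WT, with close replicates in both groups (log2 difference -0.56, SE 0.20, adjusted p = 0.355). Slc25a24.L, which read 1279 and 1607 in N1, against 1411 and 1009 in WT, and slc25a24.S had log2 differences of 0.26 and -0.08, both with overlap.

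The carriers of oxidative phosphorylation were the brightest. Slc25a5.L, an ADP/ATP exchanger, had the highest signal of any slc25 member, with 27262 and 22028 in N1, against 18539 and 20234 in WT (log2 difference 0.34, adjusted p = 0.553). N1 was above WT on both arrays there, whereas slc25a3.L, the phosphate carrier, was below WT on both. It read 3968 and 3654 in N1, against 4379 and 4679 in WT (log2 difference -0.25, SE 0.17, adjusted p = 0.631). A dim second probeset of slc25a3.L read 37.6 and 42.6 in N1, against 69.6 and 66.7 in WT (log2 difference -0.77, adjusted p = 0.603). The dim slc25a4.L, another ADP/ATP exchanger, read 67.4 and 20.2 in N1, against 39.1 and 61 in WT.

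Of the others, slc25a20.L, which brings in acylcarnitines, read 662 and 643 in N1, against 680 and 819 in WT (log2 difference -0.19), and slc25a20.S had -0.18. Slc25a11.S, the oxoglutarate carrier that serves the same shuttle as citrin, read 272 and 268 in N1, against 217 and 204 in WT (log2 difference 0.36, adjusted p = 0.668). In slc25a11.L the value of 0.03 was -0.08 with median centring. The dim slc25a26.L, which brings in S-adenosylmethionine, read 34.7 and 26.3 in N1, against 11.4 and 11.3 in WT (log2 difference 1.41, adjusted p = 0.519). The dim folate carrier slc25a32.L read 42.5 and 51.8 in N1, against 68 and 74.8 in WT (log2 difference -0.60, adjusted p = 0.679).

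**Figure D3:**
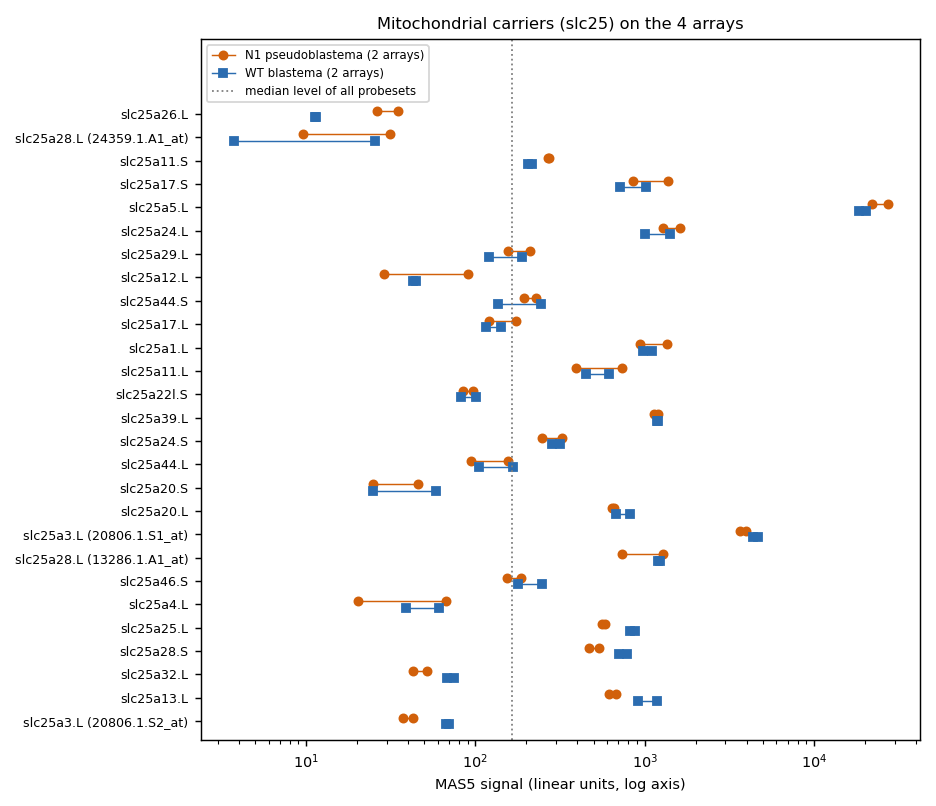
MAS5 signal (log axis) of the 27 slc25 probesets on the 4 arrays, with the N1 arrays as orange circles above the WT arrays as blue squares, a line joining the arrays of a group and a dotted line at the median level. The signals span dim probesets under 100 to slc25a5.L with 27262 and 22028 in N1, against 18539 and 20234 in WT, and slc25a13.L, slc25a25.L and slc25a28.S have their N1 circles at lower signals than their WT squares.

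Of the 102 genes, 24 had over 1 probeset and 16 had both an .L and an .S homeolog on the array. All probesets of a gene lay on the same side of 0 in 7 of these 16 and on both sides in 9. Only slc25a11 and slc25a24 had bright probesets throughout, and their homeologs differed by 0.33 and 0.34 in log2 difference, about the size of the SEs. The widest gap, 3.11, was that of slc16a3, dim in both homeologs and with .S signals at the low end of the array's range, and it was 1.66 with 16 added before log2 and 0.80 with 64 added. Counted as genes, each by its brightest probeset, 9 of 102 were higher in N1 and 4 lower at an unadjusted p under 0.05. These are 8.82% and 3.92%, beside 6.82% and 4.29% of all probesets. The median log2 difference was 0.14, beside 0.07 over all probesets.

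**Figure D4:**
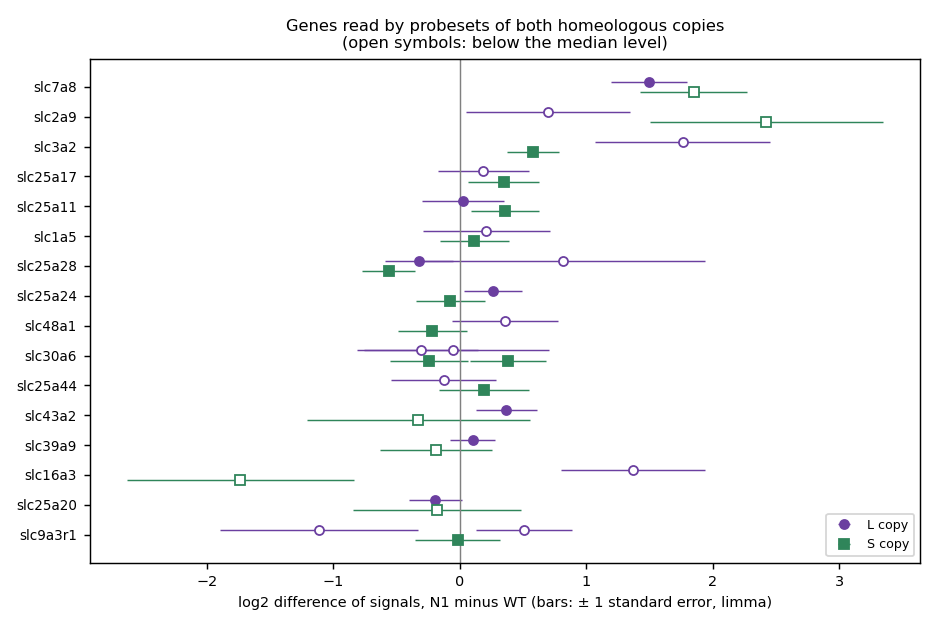
Log2 difference, N1 minus WT, of every probeset of the 16 solute carrier genes with both homeologs on the array, with .L probesets as circles, .S probesets as squares, dim probesets open and bars of 1 SE from limma. Slc7a8 and slc3a2 have all marks above 0, between 0.58 and 1.85, while slc16a3 has 1.37 in .L and -1.74 in .S.

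Genes that work with the carriers were taken from 5 lists, of which 63 genes with 94 probesets were measured. In limma 0 of the 94 had an adjusted p under 0.05, and 13 were higher in N1 and 6 lower at an unadjusted p under 0.05, which is 13.8% and 6.38%, beside 6.82% and 4.29% of all probesets. The higher count was 8 with median centring (8.51%, beside 4.92% of all probesets). The lower count was 2 without the variance trend (2.13%, beside 2.68% of all probesets). Both counts fell with either WT array left out, as did the counts over all probesets. Without N1 replicate 2, 3 were higher and 3 lower after adjustment (3.19% each), when 156 and 178 of all probesets passed (1.01% and 1.15%).

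The list of proteins that import and assemble inner membrane carriers, with the channels of the outer membrane, had 25 probesets, of which 0 were higher and 5 lower in N1 at an unadjusted p under 0.05. Those 5 are 20% of the list, beside 4.29% of all probesets. Its median log2 difference was -0.25, and 6 of the 25 were above 0. This list was chosen knowing that mitochondrial import genes stood out in these arrays, so its direction is no independent evidence. Timm13.L, a small Tim chaperone that escorts membrane proteins between the membranes, read 730 and 941 in N1, against 1969 and 1884 in WT (log2 difference -1.22, SE 0.20, adjusted p = 0.072). With an array left out, its log2 difference lay between -1.4 and -1.034. Its homeolog timm13.S overlapped, with 2744 and 3722 in N1, against 3595 and 2534 in WT (log2 difference 0.08, and -0.03 with median centring). Tomm40.S, the pore of the outer membrane, read 864 and 1086 in N1, against 1948 and 2078 in WT (log2 difference -1.06, SE 0.20, adjusted p = 0.107). With an array left out, its log2 difference lay between -1.22 and -0.8901. Tomm40.L read 404 and 400 in N1, against 463 and 492 in WT. The other 3 were timm8b.L and both probesets of the channel vdac1.S, with log2 differences of -0.56, -0.50 and -0.47.

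The pumps that set the gradients had 32 probesets, with 6 higher in N1 (18.8%, beside 6.82% of all probesets) and 0 lower at an unadjusted p under 0.05 and a median of 0.08. Of the 6, 5 were among the 26 probesets of the proton pump (atp6) and 1 was atp1b2.L, a beta subunit of the sodium-potassium pump, with 534 and 381 in N1, against 256 and 260 in WT (log2 difference 0.80, adjusted p = 0.313). Among 16 probesets of accessory and trafficking proteins 1 was higher (6.25%, beside 6.82% of all probesets). This was sgk1.L, a kinase that raises the number of several carriers at the surface in mammals. It read 631 and 613 in N1, against 326 and 384 in WT (log2 difference 0.81, SE 0.23, adjusted p = 0.234).

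The list of amino acid response and sensing also held genes of glutathione synthesis, antioxidant control and serine metabolism. Of its 13 probesets, 3 were higher in N1 and 1 lower at an unadjusted p under 0.05. These are 23.1% and 7.69%, beside 6.82% and 4.29% of all probesets. Sesn1.L, a sestrin that restrains mTORC1 when leucine is short, read 446 and 415 in N1, against 175 and 121 in WT (log2 difference 1.57, SE 0.29, adjusted p = 0.109). A second probeset of sesn1.L, also bright, read 601 and 977 in N1, against 552 and 507 in WT (log2 difference 0.53, adjusted p = 0.515). The other 2 higher were gclc.L, of glutathione synthesis, and nfe2l2.L (NRF2), a regulator of antioxidant genes, with 0.89 and 0.49. The lower was shmt2.L, the mitochondrial serine hydroxymethyltransferase, with 1777 and 1021 in N1, against 2251 and 2105 in WT (log2 difference -0.69, adjusted p = 0.383). Of 8 probesets on metal handling, 3 were higher in N1 and 0 lower (37.5% and 0%, beside 6.82% and 4.29% of all probesets). All 3 were probesets of the same gene, mt4.L, a metallothionein that binds zinc and copper. In the paper the gene, there called metallothionein A, was also higher in N1 by qPCR on remaining RNA of the same samples. These probesets are listed there as higher in N1 on the same arrays, so they are no independent evidence. The brightest of them read 832 and 322 in N1, against 130 and 144 in WT (log2 difference 1.92, SE 0.42, adjusted p = 0.153). Its N1 replicates differed by more than 2-fold. With an array left out, its log2 difference lay between 1.237 and 2.609.

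**Figure D5:**
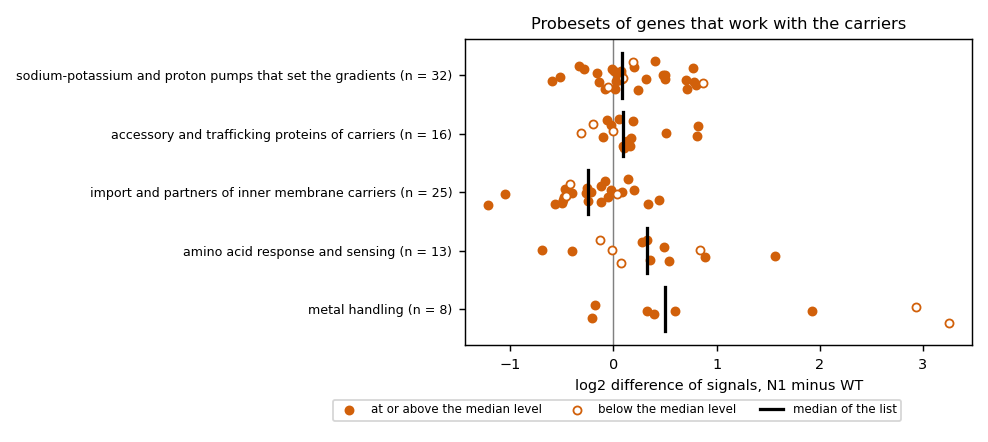
Log2 difference, N1 minus WT, of the 94 probesets of genes that work with the carriers, in rows by list, with bright probesets filled, dim ones open and the list's median as a bar. The import list has its median at -0.25 and 2 points beyond -1, timm13.L and tomm40.S, and the metal handling list holds the 3 mt4.L points at 1.92 and above.

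Markers of other cell types stood higher in N1 than in WT in most lists, and since the tissue is bulk, more cells of a type and more RNA per cell cannot be told apart. Summed over their probesets, red cell genes read 64736 and 77408 in N1, against 32920.2 and 26675 in WT, with 9 of 10 probesets above 0. Epidermal genes read 33655 and 38772 in N1, against 27912 and 21805 in WT (23 of 25 above 0). Ionocyte genes read 5822 and 5357 in N1, against 3590 and 3679 in WT (9 of 11), but 6 of these 11 probesets were proton pump subunits also counted with the pumps above, and they made up 5179 and 3866 of the sums in N1, against 3282 and 3429 in WT. Of the other 5, ca2.L, a carbonic anhydrase, read 485 and 1291 in N1, against 155 and 117 in WT, whereas the dim foxi1.L, a regulator of ionocyte fate, read 21.2 and 11.4 in N1, against 29 and 43.4 in WT. Pigment cell genes read 4494 and 1937 in N1, against 1374 and 1430 in WT (6 of 7). All 4 of these sums lay higher on both N1 arrays than on both WT arrays.

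Muscle genes read 4456 and 3726 in N1, against 3318 and 3028 in WT, with 22 of 27 above 0 and 2 bright. Leucocyte genes read 2510 and 2238 in N1, against 2283 and 2084 in WT, and overlapped. The genes of blastema mesenchyme, of which 7 of 10 were measured, read 2289 and 2455 in N1, against 2539 and 2819 in WT, with 8 of 13 probesets above 0, 5 bright and a median log2 difference of 0.10. Its members went both ways, with msx1.L at 382 and 397 in N1, against 570 and 459 in WT, and hoxd13.S at 270 and 209 in N1, against 106 and 141 in WT. The brightest hoxa11.S probeset read 310 and 684 in N1, against 709 and 964 in WT (log2 difference -0.84). The other hoxa11.S probesets had log2 differences between -0.61 and 0.07. The part of these cell type markers in the differences of the carriers, slc7a8, slc38a2 and slc30a2 included, was not tested.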

How the data were processed

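RNA pooled from pseudoblastemas of N1 tadpoles (2 arrays) and blastemas of WT siblings (2 arrays) was amplified and hybridised by the authors to an Affymetrix *X. laevis* GeneChip. The authors deposited intensity values, MAS5 signals made with GCOS on a linear scale, with versions not given in the sources used here. The table holds 15611 probesets, each column with a mean of 500 after the top and bottom 2% were trimmed. The scaling compares arrays relative to their own total, and detection calls were not used here. Control probesets (120) were left out.

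Signals were taken as log2 with nothing added, and N1 was compared with WT in limma 3.58.1 (R 4.3.3, lmFit and eBayes, the variance following a trend with the level). The Benjamini-Hochberg adjustment ran over all 15491 probesets, with a threshold of 0.05. All adjusted p-values in the text are limma's. Fold changes are ratios of mean linear signals. With 2 arrays in each group the smallest two-sided p of an exact permutation test is 0.3333, so none was run. The steps were tested on simulated data. Counts and figures were made in Python 3.11.15 with pandas 2.3.3 and matplotlib 3.10.9.

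Symbols came from the platform annotation, in which 9304 probesets had 1 symbol, 195 several and 5992 none. Gene IDs of 127 members were found in the RefSeq table of assembly Xenopus_laevis_v10.1, which changed 0 symbols. Members were sorted by hand into 11 substrate groups. The members and lists were chosen with earlier results of these data known. Members named by rule were any with an adjusted p under 0.05, the 12 bright members with the smallest p in each direction among those without overlap (fewer where fewer exist), the brightest of each group, the 3 genes whose bright homeologs differed most, the 4 partner genes with the smallest p, and all probesets of a member gene so named. This named 44 member probesets of 29 genes. The other members and partner genes in the text were chosen after their values were seen. Alternatives were a block for the replicate number, leaving out each array, filters on dim probesets, no variance trend, centring on the median, quantile normalisation, and adding 16 or 64 to the signals.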

Additional observations from a re-analysis of the deposited data

How the results depend on the processing

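Centring each array on its median moved the median log2 difference of all probesets by -0.11, and quantile normalisation by -0.09. The causes of the changes below were not tested, except where fewer probesets or members were counted by construction. At an unadjusted p under 0.05, the 12 members higher in N1 were 4 when bright probesets alone were tested (6.78%, beside 8.35% of all bright probesets). The 5 lower were 8 with median centring, between 0 and 7 with an array left out, and 2 with the slc25 carriers left out, an alternative chosen after seeing the data, as was the median over bright members, 0.09. Members over 1.5-fold higher were 27 without the filter on dim probesets, and those over 1.5-fold lower were 9 without the filter and 5 with median centring. Both counts also changed with an array left out. No share over all probesets is given for these counts, and 4825 of all 7745 dim probesets were higher in N1. The slc25 median was -0.14 with quantile normalisation, -0.13 with median centring and between -0.16 and 0.12 with an array left out. Over all probesets the median was -0.02, -0.04 and between 0.02 and 0.15 in these settings. Partner probesets higher at an unadjusted p under 0.05 were 8 with median centring and between 5 and 15 with an array left out. Those lower were 2 without the variance trend (2.13%, beside 2.68% of all probesets). Both partner counts also moved with each array left out. With an array left out, between 0 and 3 partner probesets passed after adjustment in each direction. Where 1 array of a group was left, it was assumed to vary like the other group.

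The labels do not say whether same-numbered arrays were paired, and so few arrays cannot settle it. The deviations of same-numbered arrays from their group means correlated by 0.028 over all probesets and 0.264 over the members. With the replicate number as a block, 1 member passed after adjustment, slc7a8.L (adjusted p = 0.049, against 0.128 without the block and a range of 0.049 to 0.592 over its alternatives), and 3 partner probesets passed as higher and 2 as lower. Over all probesets 143 passed as higher and 57 as lower with the block (0.923% and 0.368%), against 17 and 2 without it, so that the 1 member (0.769%) stood near the share of the whole array. The sugar members higher at an unadjusted p under 0.05 were 1 with the block and 2 without it, beside 7.53% and 6.82% of all probesets.

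Some log2 differences changed sign. Not all of them were small in the main fit, such as 0.82 for the dim slc25a28.L probeset and 0.70 for slc2a9.L. The dim slc16a1.S probeset had -0.13 with quantile normalisation, -0.10 with median centring, -0.0039 with 16 added and -0.017 with 64 added. With median centring slc25a11.L had -0.083, slc39a9.L -0.0078, the dim slc2a1.L probeset -0.030 and timm13.S -0.026, and with quantile normalisation slc1a5.L had -0.035 and the dim slc2a1.L probeset -0.032. With an array left out, the values ran between -0.53 and 0.54 for the dim slc16a1.S probeset, -0.10 and 0.33 for slc1a5.S, -0.37 and 0.079 for slc20a1.L, -0.40 and 0.22 for the brighter slc22a5.L probeset, -0.42 and 0.47 for slc25a11.L, -0.59 and 1.05 for slc25a12.L, and -0.79 and 0.43 for slc25a20.S. They ran between -0.28 and 0.12 for slc25a24.S, -0.73 and 0.080 for the bright slc25a28.L probeset, -0.57 and 2.21 for the dim one, -1.28 and 0.47 for slc25a4.L, -0.0029 and 0.85 for slc29a2.L, -0.79 and 0.16 for the brighter slc2a1.L probeset, and -0.024 and 1.42 for slc2a9.L. They ran between -0.43 and 0.14 for slc30a1.L, -0.070 and 0.37 for slc38a5.S, -0.26 and 0.051 for slc44a1.L, -0.20 and 0.42 for slc7a7.L, -0.32 and 0.28 for slc9a3r1.S, and -0.17 and 0.33 for timm13.S. Of the values computed for single members and partner genes under the alternatives, 1115 of 1164 kept their direction and their side of the threshold. None of these genes passed the threshold in the main fit. Values that shrank without a change of sign count as kept, such as slc30a2.L from 2.54 to 0.70 with 64 added. The count thus does not measure how steady the sizes were.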
